A study of Sus scrofa with 3 samples.

Results

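Kupffer cell and macrophage marker genes were followed in the livers of intact and castrated male pigs. The set was fixed by name as 10 genes, CD68, CD163, MARCO, CSF1R, MRC1, MSR1, AIF1, CTSS, SPP1 and TREM2, and 9 of the 10 were found by exact gene symbol among the 34579 features of the deposited tables. CD68, a lysosomal membrane glycoprotein of macrophages, was not found under that symbol and was not analysed here. Each of the 9 genes found reached the minimum used below, 1 FPKM or more in each of the 3 libraries, as did 15613 of the 22945 mRNA features. FPKM stands for fragments per kilobase of transcript, scaled to the sequencing depth of the library. The scaling behind the deposited values is not known, so all levels and the minimum are given on the deposited scale only.

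All pigs were male Chinese Wuzhishan miniature pigs, 6 to 7 months old when obtained, before acclimation and the diet. All received the same diet rich in fat and cholesterol (HFC). They formed 3 groups: intact males (IM), castrated males (CM), and castrated males given testosterone replacement (CMT). Per the labels, liver RNA from 3 pigs of a group was pooled into 1 library, while the study's methods do not state how many of a group's pigs were pooled. There were 3 libraries in all, 1 per group, and no group on another diet among them. With 1 library per group no test between conditions was possible, the variation between pigs is unknown, and every difference below is a difference between libraries.

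The reads behind the FPKM values, recovered from the steps between low values, summed to 32200208, 36127819 and 25420893 in IM, CM and CMT. The hepatocyte transcript ALB, serum albumin, had an FPKM of 690375, 476360 and 445509 in IM, CM and CMT, and all 8 hepatocyte markers listed were above 1 FPKM in each library. The deposited scale itself differs between libraries. Setting the columns to equal sums moved every log2 ratio of CM to IM by 0.26 and every ratio of CMT to CM by -0.25, and setting them to equal recovered reads moved them by 0.28 and -0.24. Under these scalings the median log2 ratio of all mRNA features became 0.24 and 0.26 for CM to IM, against -0.02 as deposited, and -0.23 under both for CMT to CM, against 0.01. Shares of all mRNA features past 1.5-fold are given below as deposited only. Counts of genes under other scalings therefore have no such share beside them, and these scalings move all features alike.

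Kupffer cells are the resident macrophages of the liver. They line the sinusoids, take up bacteria, spent red cells and modified lipoproteins through scavenger receptors, and depend on signals through the CSF1 receptor for survival. When they are lost or when the liver is inflamed or fatty, monocytes from the blood enter and mature into macrophages, and macrophages that handle excess lipid are known to express TREM2 and SPP1.

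The markers did not move as one block. In CM, the scavenger receptor MARCO was 4.998-fold lower than in IM, while the related scavenger receptor MSR1 was 1.56-fold higher and the lipid-sensing receptor TREM2 was 2.94-fold higher, the last at a low level. Thus 2 of the 9 genes were at least 1.5-fold higher in CM than in IM, beside 11.1% of all mRNA features tested, and 1 was at least 1.5-fold lower, beside 12.1%. Between CMT and CM, MARCO, CD163 and SPP1 were at least 1.5-fold higher in CMT, 3 of 9 beside 12.1% of all mRNA features, and TREM2 and MSR1 were lower, 2 of 9 beside 13.5%. Between CMT and IM none of the 9 genes differed by 1.5-fold, where 6.67% of mRNA features were higher in CMT and 10.1% lower. These shares come from 9 genes and were not tested, and the comparisons share libraries, so a low value in CM enters both of the first comparisons.

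The median log2 ratio of the 9 genes was -0.10 for CM to IM, -0.01 for CMT to CM and -0.02 for CMT to IM, close to the medians of all mRNA features at -0.02, 0.01 and -0.01. The first of these medians turned positive, to 0.16 and 0.18, with equal column sums and with recovered read totals. Relative to both other libraries at once, TREM2 and MSR1 were at least 1.5-fold higher in CM, 2 of 9 beside 6.87% of mRNA features, and MARCO was at least 1.5-fold lower, 1 of 9 beside 7.12%.

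**Figure D1:**
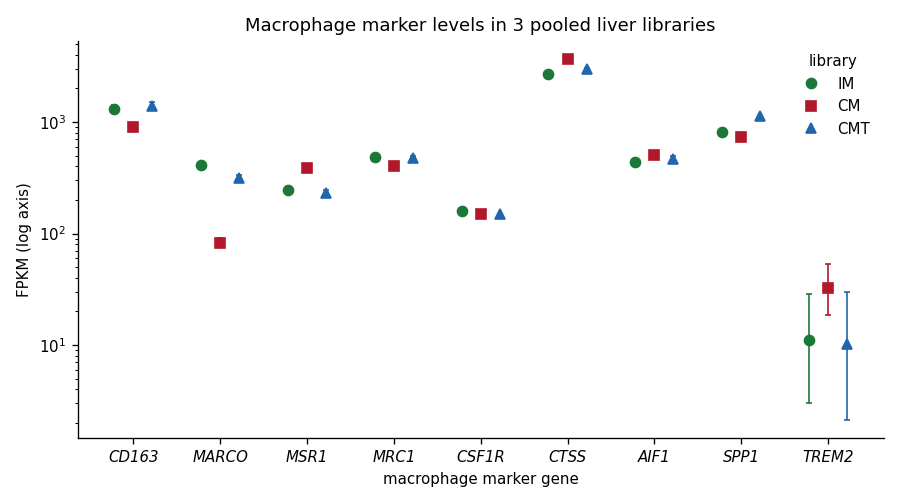
Levels of the 9 macrophage marker genes found, as FPKM on a log axis, in the pooled liver libraries IM (circles), CM (squares) and CMT (triangles). Bars are 95% exact Poisson intervals on the recovered reads, counting error only, hidden behind most symbols and not drawn for CSF1R and SPP1, whose reads were not recovered, and drawn for TREM2 at its smallest possible read numbers; MARCO stands at 82.8 in CM against 414 and 317, and TREM2 at 32.7 against 11.1 and 10.3.

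The levels of the genes spanned more than 2 orders of magnitude. Ranks between genes rest on transcript lengths that are not known here, and the lengths recovered for CD163 and TREM2 were shorter than their coding sequences. CTSS, CD163 and SPP1 held the highest ranks in that order in every library and TREM2 the last. In IM the order between them was MRC1, AIF1, MARCO, MSR1 and CSF1R, and AIF1 and MARCO were not separated by their 95% counting intervals, 413 to 466 and 394 to 434 FPKM. In CMT the order was the same, but there MRC1 and AIF1 were not separated, with intervals of 466 to 494 and 436 to 496. In CM the order changed to AIF1, MRC1, MSR1, CSF1R and MARCO, with MARCO moving from rank 6 to rank 8 and MSR1 from rank 7 to rank 6, and MRC1 and MSR1 were not separated, at 394 to 414 and 375 to 402.

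MARCO, a class A scavenger receptor of resident macrophages that binds bacteria and particles, had an FPKM of 414, 82.8 and 317 in IM, CM and CMT. CM was therefore the low library, and IM and CMT were nearer to each other than to CM. Behind these values stood 1658, 452 and 1033 recovered reads. The level in CM was 4.998-fold lower than in IM, with a 95% exact binomial interval of 4.50 to 5.56, and the level in CMT was 3.83-fold that in CM, with an interval of 3.43 to 4.29. Such intervals cover counting error only and not the variation between pigs. Read pairs were often counted as 2 reads, since among features of odd recovered length with at least 10 reads 75.5% to 76.6% of the read numbers were even, so the intervals are also somewhat too narrow. With the reads divided by 2, the interval of the ratio of CM to IM widened from 0.180 to 0.222 to a range of 0.172 to 0.232.

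Of the 15613 mRNA features tested, 81 had a lower ratio of CM to IM than MARCO and 140 had a higher ratio of CMT to CM. In IM, 88.6% of these features had a lower FPKM than MARCO, in CM 63.1% and in CMT 85.8%. CMT remained 1.30-fold below IM, a log2 ratio of -0.38 with an interval of -0.50 to -0.27. In bulk liver, fewer cells of a type and less RNA per cell cannot be told apart, here and for every gene below.

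MSR1, the other class A scavenger receptor of the set, takes up modified low-density lipoprotein and is a receptor of foam cell formation. Its FPKM was 388 in CM against 248 in IM and 232 in CMT, so that CM was the high library where for MARCO it was the low one. The ratio of CM to IM was 1.56, with an interval of 1.47 to 1.66 from 1526 and 3252 reads, and the level in CMT was 1.68-fold lower than in CM, with an interval of 1.57 to 1.79. The ratio of 2 genes within a library does not depend on how the library was scaled. MARCO stood at 1.67 times MSR1 in IM, 0.213 times in CM and 1.37 times in CMT.

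CD163, the haemoglobin-haptoglobin scavenger receptor, had the highest FPKM of the surface receptors in the set. Its FPKM was 1305, 909 and 1386 in IM, CM and CMT, again with CM lowest. CM was 1.44-fold below IM, short of 1.5-fold, with an interval of 1.28 to 1.61, and CMT was 1.52-fold above CM, with an interval of 1.35 to 1.72. The length recovered for CD163 was 185 bases, shorter than its coding sequence. The gene model used is not known, so it cannot be told whether a common factor of its reads was lost. If it was, these intervals are too wide by an unknown amount. The log2 ratio of CMT to CM was 0.61 as deposited and as low as 0.36 under another scaling, which is within 1.5-fold.

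MRC1, the mannose receptor CD206, which clears glycoproteins with terminal mannose, had an FPKM of 404 in CM against 486 in IM and 480 in CMT. CM was 1.20-fold below IM, with an interval of 1.16 to 1.25, and CMT and IM were not separated, at a log2 ratio of -0.02 with an interval of -0.07 to 0.04. The direction between CM and IM turned to a log2 ratio of 0.01 with recovered read totals, as did that between CMT and IM, to 0.02. Liver sinusoidal endothelium expresses MRC1 as well. Of the 10 endothelial markers above an FPKM of 1, MRC1 among them, VWF was lower in CM than in IM by 1.5-fold or more, though not with equal column sums or recovered read totals, and none was as much higher, and their median log2 ratio was -0.28. Their summed FPKM, MRC1 included, was 5280, 4408 and 5002 in IM, CM and CMT, in the same order as MRC1, and the part of the endothelium in the MRC1 values was not tested.

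CSF1R, the receptor for CSF1 and IL34, was nearly level, with an FPKM of 150 in CM against 161 in IM and 149 in CMT. The log2 ratio was -0.10 for CM to IM and -0.01 for CMT to CM, and the first became 0.16 with equal column sums and 0.18 with recovered read totals. No reads were recovered for CSF1R, so its values have no counting interval.

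CTSS, cathepsin S, a lysosomal cysteine protease that processes the invariant chain of MHC class II, had the highest level of the set. Its FPKM was 2711, 3641 and 2981 in IM, CM and CMT. The ratio of CM to IM was 1.34, with an interval of 1.31 to 1.38 from 10540 and 19288 reads, and CM was the highest library under each scaling tried. Of the summed FPKM of the 9 genes, CTSS made up 41.2%, 53.2% and 41.7% in IM, CM and CMT. The log2 ratio of CM to IM was 0.43 as deposited and reached 0.71, past 1.5-fold, with recovered read totals.

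AIF1, the calcium-binding protein IBA1 of the macrophage cytoplasm, had an FPKM of 507 in CM against 439 in IM and 465 in CMT. CM was 1.16-fold above IM, with an interval of 1.07 to 1.25. The interval of the ratio of CMT to IM, 0.970 to 1.16, included 1. Relative to AIF1 in the same library, MARCO stood at 0.942, 0.163 and 0.682 in IM, CM and CMT, and CD163 at 2.97, 1.79 and 2.98.

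SPP1, osteopontin, a secreted ligand of integrins and CD44, had an FPKM of 812, 729 and 1136 in IM, CM and CMT. CMT was the high library, 1.56-fold above CM and 1.40-fold above IM. With equal column sums the log2 ratio of CMT to CM was 0.39, within 1.5-fold, and the ratio of CM to IM, -0.16 as deposited, turned to 0.12 with recovered read totals. Bile duct epithelium also makes SPP1. CLDN4, a tight junction protein of that epithelium, had an FPKM of 268, 209 and 447 in IM, CM and CMT, in the same order as SPP1, whereas the duct markers EPCAM and CFTR were highest in CM, EPCAM at 36.6, 62.6 and 41.4. The summed FPKM of the 7 duct markers found, SPP1 included, was 1164, 1043 and 1651, and none of the 7 was at 0. The part of bile ducts in the SPP1 values was not tested.

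TREM2, a receptor for lipids and lipoproteins on macrophages, was the weakest of the 9 genes, with an FPKM of 11.1, 32.7 and 10.3 in IM, CM and CMT. CM was the high library, with a ratio to IM of 2.94, and CMT was 3.18-fold below CM. The smallest read numbers that give these values, in the order IM, CM and CMT, were 4, 16 and 3, at a length of 143 bases. That length is shorter than the coding sequence. The gene model used is not known, so it cannot be told whether a common factor was lost. The true read numbers are these or larger multiples of them. At the smallest numbers the 95% intervals were 0.947 to 12.1 for CM to IM and 0.0587 to 1.10 for CMT to CM and included equal levels. At larger multiples the intervals would be narrower. Of the mRNA features tested, 264 had a higher ratio of CM to IM and 351 a lower ratio of CMT to CM.

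**Figure D2:**
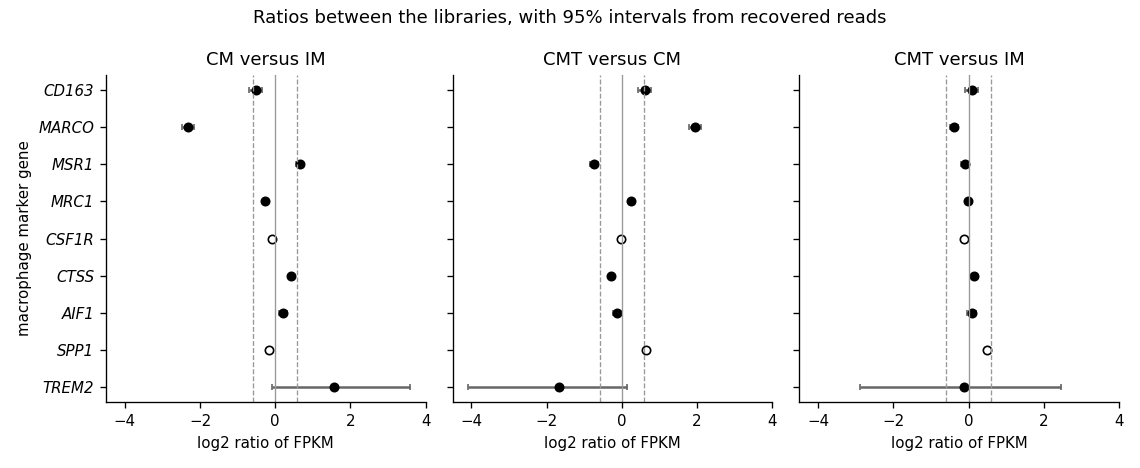
Log2 ratios of FPKM for the 9 macrophage marker genes for CM to IM (left), CMT to CM (middle) and CMT to IM (right). Bars are 95% exact binomial intervals on recovered reads, counting error only and too wide for TREM2 and CD163, open circles are genes without recovered reads, and dashed lines mark 1.5-fold; in the right panel all points lie between the dashed lines.

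The summed FPKM of the 9 genes was 6586, 6843 and 7156 in IM, CM and CMT. Set against 14 general myeloid and leukocyte genes, such as LAPTM5, FCER1G and CD53, whose sum was 2775, 3527 and 2869, the markers stood at 2.37, 1.94 and 2.49 in IM, CM and CMT. As deposited, none of the 14 reached 1.5-fold between CM and IM and their median log2 ratio was 0.27. With equal column sums or recovered read totals, 4 did, all higher in CM and LAPTM5, FCER1G and CD53 among them, with a median of up to 0.55. Relative to the myeloid sum, the log2 ratio of CM to IM was -2.67 for MARCO, -0.87 for CD163, -0.61 for MRC1, -0.50 for SPP1 and -0.44 for CSF1R. It was -0.14 for AIF1, 0.08 for CTSS, 0.30 for MSR1 and 1.21 for TREM2. CTSS and AIF1 thus lay close to the myeloid genes, 5 genes including MARCO and CD163 below them, and MSR1 and TREM2 above. This comparison was chosen after the values were seen.

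**Figure D3:**
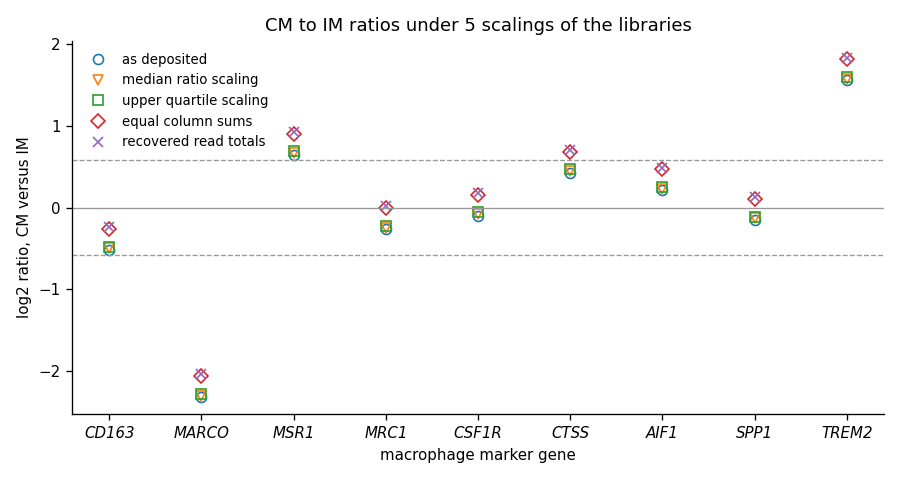
Log2 ratio of CM to IM for each of the 9 genes as deposited and after 4 other scalings of the libraries, each of which moves all genes by the same amount. MARCO stays below and MSR1 and TREM2 stay above the dashed 1.5-fold lines under all 5, while MRC1, CSF1R and SPP1 cross 0 and CTSS crosses 1.5-fold.

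Among genes around CSF1R, which include its ligands, the transcription factors of macrophage development and signalling proteins, 9 were above an FPKM of 1. Of these, IRF8 and PIK3CG were at least 1.5-fold higher in CM than in IM, and CEBPB was among those at least 1.5-fold lower. IRF8, a factor of monocyte and dendritic cell development, had an FPKM of 197, 329 and 195 in IM, CM and CMT. PIK3CG, a phosphoinositide 3-kinase of leukocytes, was at 19.1, 31.1 and 18.4. On 23, 51 and 18 reads, the smallest numbers that give these values, its interval for CM to IM, 0.977 to 2.79, included equal levels. If a common factor of its reads was lost, the interval is too wide. CEBPB, a factor of both the acute phase response and monocytes that hepatocytes also express, was at 496, 190 and 277, so that CMT was also below IM. The median log2 ratio of the 9 was 0.35 for CM to IM and -0.36 for CMT to CM. In the latter 0 were at least 1.5-fold higher and 3 lower, beside 12.1% and 13.5% of all mRNA features. With recovered read totals the number past 1.5-fold between CM and IM went from 4 to 7.

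Of the genes that act with TREM2, as adaptors, kinases or ligands, 8 were measured and 3 were at least 1.5-fold higher in CM than in IM, with 0 lower, beside 11.1% and 12.1% of all mRNA features. With equal column sums or recovered read totals, which raise every ratio of CM to IM, 6 of the 8 passed 1.5-fold. The 3 were SYK, the kinase recruited by the adaptor, with an FPKM of 19.3, 33.0 and 14.2 in IM, CM and CMT, PLCG2, the phospholipase after it, at 15.8, 47.7 and 25.2, and LGALS3, galectin 3, at 1387, 2806 and 1355. The interval of SYK for CM to IM, 0.911 to 3.37, included equal levels. It was taken at 15, 35 and 9 reads in IM, CM and CMT, the smallest numbers that give its FPKM values. If a common factor of its reads was lost, the interval is too wide. None of the 3 is restricted to macrophages. TYROBP, the adaptor DAP12 with which TREM2 pairs, was at 640, 766 and 675, and TREM2 stood at 0.0174 times TYROBP in IM, 0.0427 in CM and 0.0152 in CMT. APOE, a TREM2 ligand made mostly by hepatocytes in the liver, was 1.28-fold lower in CM than in IM. The median log2 ratio of the 8 was 0.43 for CM to IM, up to 0.71 under another scaling, and -0.53 for CMT to CM. There 4 of 8 were at least 1.5-fold lower in CMT, beside 13.5% of all mRNA features.

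Among the receptors of SPP1, 7 of 8 lay as deposited within 1.5-fold in each of the comparisons of CM with IM and CMT with CM. The exception in both was the integrin subunit ITGB3, with an FPKM of 97.9, 179 and 93.2 in IM, CM and CMT. With equal column sums or recovered read totals ITGA5 also passed 1.5-fold between CM and IM, and ITGAV between CMT and CM, and the list's median for CM to IM went from 0.21 to as much as 0.49 (log2). CD44 was at 118, 119 and 121 in IM, CM and CMT.

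Of 18 genes listed as marks of resident Kupffer cells, 13 were found and 12 were above an FPKM of 1. FOLR2, a folate receptor of resident macrophages, was the 1 gene past 1.5-fold between CM and IM, with an FPKM of 4969, 2737 and 5072 in IM, CM and CMT. CM was 1.82-fold below IM, with an interval of 0.539 to 0.563 for the ratio, and just within 1.5-fold, at a log2 ratio of -0.58, with recovered read totals. CD5L, a scavenger protein of tissue macrophages, was at 5504, 3902 and 5181, low in CM in the same way but within 1.5-fold. C1QA and C1QC, subunits of the complement component C1q made by macrophages, had ratios of CM to IM of 0.939 and 1.07. The remaining subunit, C1QB, was at 2599, 3432 and 2901, a ratio of CM to IM of 1.32 with an interval of 1.30 to 1.34, and reached 1.60 with recovered read totals. CLEC4F, a lectin specific to Kupffer cells in rodents, was at 460, 588 and 726. The median log2 ratio of the 12 genes, -0.09 for CM to IM, ran from -0.07 to 0.19 over the 4 other scalings. For CMT to CM it was 0.30, with 1 gene, FOLR2, at least 1.5-fold higher.

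Of 10 genes of monocytes and recruited macrophages above an FPKM of 1, ITGAM, an integrin subunit, was at least 1.5-fold higher in CM than in IM, and LYZ and FCN1 were among those lower by that fold. LYZ, lysozyme, was 3.96-fold lower in CM than in IM and at 21.7 in CMT against 40.3 in IM. FCN1, a ficolin of monocytes, was at 107, 60.9 and 139 in IM, CM and CMT, and came within 1.5-fold between CM and IM with equal column sums or recovered read totals. CD14, the endotoxin co-receptor, and CX3CR1, the fractalkine receptor, had log2 ratios of -0.18 and -0.18. CCR2, the receptor by which monocytes leave the marrow, was at 9.48, 14.2 and 8.99 in IM, CM and CMT. Its ratio of CM to IM, 1.495, was just short of 1.5-fold as deposited and past it under all 4 other scalings. CMT was 1.58-fold below CM. The median of the 10 was -0.18 for CM to IM and turned positive, up to 0.10, with equal column sums or recovered read totals.

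Of 14 genes found that lipid-associated macrophages are known to express, CHIT1 was listed at 0 in all 3 libraries and 13 were above an FPKM of 1. In CM, 3 were at least 1.5-fold higher than in IM and 0 lower, beside 11.1% and 12.1% of all mRNA features. With equal column sums or recovered read totals, which raise the ratio of every feature, 7 were past 1.5-fold, without a share of all features to set beside them. GPNMB, a transmembrane glycoprotein of lipid-laden macrophages, had an FPKM of 8547, 14996 and 9682 in IM, CM and CMT. CD9, a tetraspanin, was at 97.2, 164 and 93.5, and FABP5, a fatty acid binding protein, at 74.8, 119 and 34.5. CTSB, the lysosomal protease with the second highest mean level of this list, was at 5523, 7372 and 4817. The median log2 ratio of the 13 was 0.37 for CM to IM, up to 0.65 under another scaling, and -0.56 for CMT to CM. There 6 were at least 1.5-fold lower in CMT, beside 13.5% of all mRNA features. Most of these genes are also expressed outside macrophages, hepatocytes included, and the libraries do not separate the sources.

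As deposited, none of 17 lysosomal enzymes and membrane proteins other than CTSS differed by 1.5-fold between CM and IM, with a median log2 ratio of 0.07. With equal column sums or recovered read totals CTSB and CTSH passed 1.5-fold, and the median reached 0.35. The one with the highest mean, CTSL, was at 9779, 6527 and 10581 in IM, CM and CMT, lowest in CM, where CTSS was highest. Of 12 genes of phagocytosis and uptake of dying cells, such as PROS1, CALR and CD47, none did so as deposited and 1 did with equal column sums, and their median of -0.04 turned positive under 3 of the 4 other scalings.

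**Figure D4:**
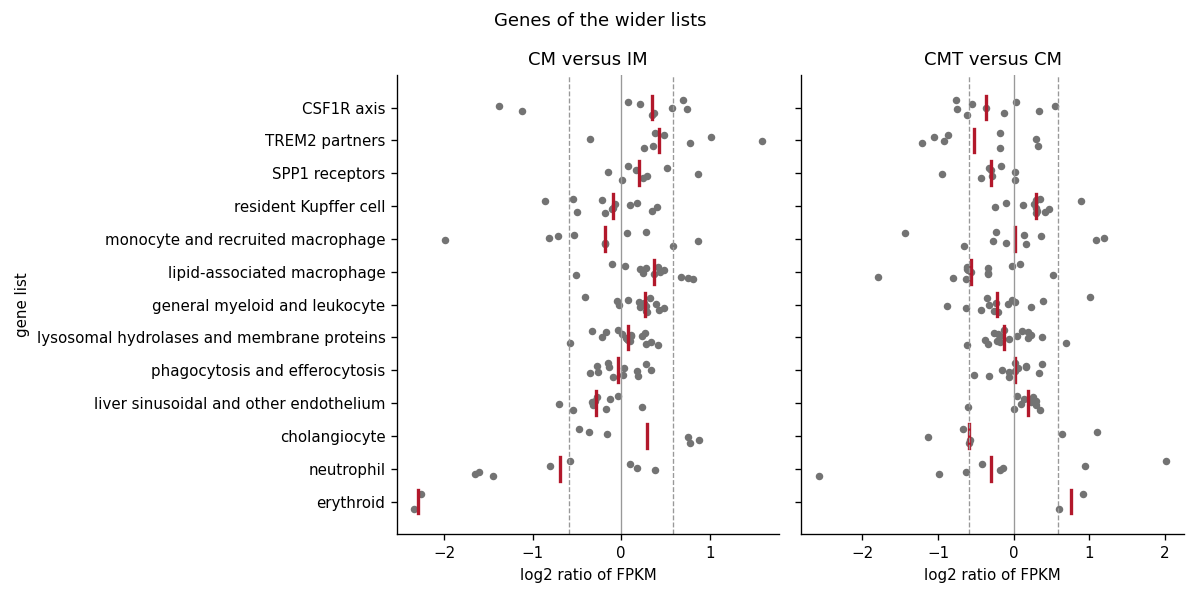
Log2 ratios of FPKM for CM versus IM (left) and CMT versus CM (right) of each gene of 13 lists that reached 1 FPKM in each library. Points are genes, red bars the medians of the lists and dashed lines 1.5-fold. The lipid-associated list and the TREM2 partners have medians of 0.37 and 0.43 on the left and -0.56 and -0.53 on the right. The neutrophil and erythroid lists have medians of -0.69 and -2.30 on the left. With a minimum of 10 FPKM in each library, which removes S100A8 and S100A9, the neutrophil median is 0.18.

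Markers of blood cells also differed between the libraries. The erythroid genes HBB and ALAS2 were 5.05-fold and 4.78-fold lower in CM than in IM, with HBB at 17158, 3400 and 5151 in IM, CM and CMT. SLC4A1, the anion exchanger of the red cell membrane, was at 0.962, 0.353 and 0.888, too low for the minimum. Of 8 neutrophil genes above an FPKM of 1, 4 were lower in CM than in IM by 1.5-fold or more, beside 12.1% of all mRNA features. Among them was S100A8, at 41.3, 15.2 and 2.54 in IM, CM and CMT, on 20, 10 and 1 recovered reads. CSF3R, CXCR2 and ELANE went the other way, with ratios of CM to IM of 1.31, 1.13 and 1.07 as deposited. Of these, CSF3R passed 1.5-fold with equal column sums or recovered read totals. With a minimum of 10 FPKM, 1 remained lower by that fold and the median log2 ratio of the list went from -0.69 to 0.18. That minimum had to hold in each library, so it removed S100A8 and S100A9 through their low values in CM or CMT. The change in the median therefore does not show that only weak genes were lower. The neutrophil genes summed to 187, 101 and 91.0, so CMT was as low as CM, unlike MARCO, CD163 and FOLR2, and MMP8 was at 0 in CMT. The T and NK cell genes, led by NKG7, CD4 and CD2, summed to 669, 864 and 536. Their median log2 ratio was 0.45 for CM to IM, with 1 gene past 1.5-fold as deposited and 6 with equal column sums. Between CMT and CM, 6 of 9 were at least 1.5-fold lower in CMT, beside 13.5% of all mRNA features. The part of blood content and of lymphocytes in the values of the macrophage genes was not tested. The B cell and stellate cell lists had no gene past 1.5-fold between CM and IM as deposited and 2 each with equal column sums, and of 4 dendritic cell genes XCR1 was higher and CCR7 lower by that fold.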

How the data were processed

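Total liver RNA was pooled by group, enriched for poly-A RNA and sequenced in paired ends. Per the submitters' processing notes and the study's methods, reads were checked with FastQC and mapped with TopHat to the pig genome Sscrofa10.2. The authors deposited 1 table of FPKM values per library, and the counting program and annotation are not given in the sources used here. The authors' DEGSeq test was not repeated, since it compares reads of single libraries.

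Genes were matched by exact symbol. Ratios were taken between deposited FPKM values without rescaling or pseudocount, over mRNA features that reached 1 FPKM in each of the 3 libraries, and 1.5-fold was used as the threshold. No p-value was computed. Low FPKM values of a gene are multiples of a step, from which a length and whole reads were recovered within 0.002 reads, taking the smallest length up to 10000 bases that made all 3 values whole, for 23106 of 24277 features above 0 (95.2%). A factor common to all 3 read numbers is lost by this. The recovery was tested on simulated data. Intervals are 95% exact binomial (ratios) or exact Poisson (levels) intervals on these reads and cover counting error only. On a 1 kb transcript, 3 reads correspond to an FPKM of 1.20, 0.877 and 1.47 in IM, CM and CMT.

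The members and gene lists were chosen with earlier results of these data known. From the 18 other lists, the text names genes at least 1.5-fold apart in CM from both IM and CMT in the same direction, and the 3 with the highest mean FPKM, with a few more that were chosen after their values were seen (C1QB, CCR2, CCR7, CD44, CLEC4F, CSF3R, CTSH, ELANE, ITGA5, ITGAM, ITGAV, SLC4A1, VWF). Some genes the rule covers are not reported here. The alternatives tried were a minimum of 10 FPKM, no minimum, an added pseudocount of 1, scaling by the median ratio, the upper quartile, equal column sums or recovered read totals, a 2-fold threshold, and the requirement that the read interval exclude equal levels. Intervals on reads divided by 2, levels relative to the myeloid sum, shares of the members' sum, and a list of relatives were added after seeing the data. All 10 symbols are in the RefSeq gene table, but its assembly differs from the authors' build, so no coordinates are given. Python 3.11.15 was used with numpy 2.4.6, pandas 2.3.3, scipy 1.17.1 and matplotlib 3.10.9.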

Additional observations from a re-analysis of the deposited data

How the results depend on the processing

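Each group was 1 pooled library, so no replicate could be left out, and no paired analysis was possible because the groups had no replicates. MARCO, MSR1 and TREM2 kept their direction and stayed past 1.5-fold between CM and IM and between CMT and CM under all 4 scalings, both other FPKM minimums and the pseudocount, and no member reached 1.5-fold between CMT and IM under any of them. The 5 members past 1.5-fold between CMT and CM became 3 with upper quartile scaling, 3 with equal column sums and 3 with recovered read totals, where CD163 and SPP1 dropped out. They became 2 at a 2-fold threshold, 3 when the read interval had to exclude equal levels and 3 when it was taken on reads divided by 2, where TREM2, taken at its smallest possible read numbers, and SPP1, without recovered reads, dropped out. Between CM and IM the 3 members became 4 with equal column sums and with recovered read totals, which added CTSS, and 2 at the 2-fold threshold, without MSR1. The members' median log2 ratio of CM to IM moved from -0.10 to 0.16 with equal column sums and 0.18 with recovered read totals, and that of CMT to CM from -0.01 to -0.26 and -0.25, because these scalings move every gene by the same amount. The wider lists moved with the same scalings, as given beside them. Recovered reads, those of TREM2, CD163, SYK and PIK3CG included, are known only up to a common factor. The depth behind these genes is therefore not known, and the variation between pigs cannot be seen with 1 library per group.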

Other observations

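Relatives of the marker genes in the scavenger, mannose, TREM and stabilin receptor families were looked up after the values of the markers were seen, so they are given as values only. Of 17 relatives listed, 16 were found and 15 were above an FPKM of 1. Of the 15, OLR1 and LY75 were at least 1.5-fold higher in CM than in IM and CD163L1 and TREM1 at least 1.5-fold lower. That is 2 of 15 in each direction, beside 11.1% of all mRNA features higher and 12.1% lower, so the counts lay near these shares. OLR1, the lectin-like receptor for oxidized low-density lipoprotein, had an FPKM of 32.7, 74.3 and 24.5 in IM, CM and CMT, the order seen for MSR1, with a ratio of CM to IM of 2.27 and a 95% exact binomial interval of 1.70 to 3.06. LY75, a mannose receptor relative of dendritic cells, was at 48.3 in CM against 30.2 in IM and 20.7 in CMT. CD163L1, a member of the same receptor family as CD163, was at 3.33, 1.70 and 2.49, with CM lowest as for CD163, but on 23, 16 and 14 recovered reads its ratio of CM to IM had an interval of 0.252 to 1.01. TREM1, a receptor of neutrophils and monocytes in the same family as TREM2, was at 3.83, 2.53 and 2.83 on 10, 9 and 6 reads, with an interval of 0.237 to 1.81 for the ratio of CM to IM. The class B scavenger receptors SCARB1, SCARB2 and CD36 lay within 1.5-fold of IM in CM, as did the stabilins STAB1 and STAB2 and the mannose receptor relatives MRC2 and PLA2R1. The median log2 ratio of the 15 was 0.01 for CM to IM and -0.27 for CMT to CM.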
